A study of Mus musculus with 5 samples.

Results

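Cycling mesenchymal nuclei are taken here as nuclei of connective tissue progenitors and fibroblasts of mouse hindlimb muscle that carry transcripts of the cell division genes Mki67 and Top2a. A nucleus was taken as mesenchymal when it held at least 1 UMI (unique molecular identifier, 1 captured RNA molecule) of Pdgfra, the receptor for platelet-derived growth factor that marks muscle fibroblast progenitors, at least 3 UMIs of the collagen genes Col1a1, Col3a1 and Col6a3 together, no UMI of the muscle stem cell gene Pax7, and less than 1.5% of its UMIs from the muscle fiber genes Ttn, Neb, Trdn and Ryr1. It was called cycling when Mki67 and Top2a together had at least 2 UMIs. These criteria gave 836 nuclei out of 4312 mesenchymal nuclei and 16048 nuclei of any type that passed the quality filters in 4 libraries. They were compared with 3244 nuclei of the same gate that had no UMI of either gene, and 232 nuclei with 1 such UMI were kept apart. The members were therefore chosen on their RNA, so every difference in RNA between cycling and non-cycling nuclei below is a description and carries no test. Open chromatin of the same nuclei was tested. It entered the choice only through a quality limit of fewer than 70000 peak counts, without which there were 328 cycling nuclei in WT E18.5 and 72 in WT P5 in place of 325 and 71.

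The 4 libraries were WT C57bl6n mice at embryonic stages E14.5 (WT E14.5, 56 hindlimbs pooled) and E18.5 (WT E18.5, 14 hindlimbs) and at postnatal day 5 (WT P5, 8 hindlimbs), and Cacna1s-/- C57bl6n mice at E18.5 (KO E18.5, 26 hindlimbs). Cacna1s encodes the voltage sensor of the muscle calcium channel, and the knockout allele lacks coding sequence in every cell of the animal, mesenchymal cells included. A library of adult WT muscle (4 hindlimbs) entered only the share of cycling nuclei. Each group was 1 library of pooled muscles without skin and bone, so no comparison between groups had a replicate. Nuclei were sorted before loading: only those stained by an antibody to PCNA, used as a stain for all nuclei, were taken, and nuclei with and without the myonuclear protein PCM1 were mixed in equal volumes. PCNA is itself a replication protein, and the part of this sort in the share of cycling nuclei was not tested.

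Fibroblasts of developing muscle divide while they build the sheaths and the matrix that surround the fibers, and most have left the cycle in the adult. Replication needs origins that are licensed by the MCM helicase in G1 and opened in S phase, together with a supply of nucleotides and of new histones. Genes for mitosis, such as the B cyclins, the kinetochore and the spindle motors, are transcribed late, in G2, and are held off in resting cells by repressor complexes that bind their promoters. Mki67 encodes a protein that coats mitotic chromosomes, and Top2a the topoisomerase that untangles replicated DNA.

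The libraries held 3621 to 5407 barcodes and 21394846 to 49913899 UMIs each, and KO E18.5 was the deepest. Cacna1s had 191 to 356 CPM (UMIs scaled to a common total) in myonuclei of the WT libraries and 0.847 CPM, 8 UMIs in all, in those of KO E18.5. Pairs of libraries shared 17 to 47 barcodes, and 1 shared barcode was a cycling mesenchymal nucleus in both WT E18.5 and KO E18.5.

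The 836 cycling nuclei were 191 in WT E14.5, 325 in WT E18.5, 71 in WT P5 and 249 in KO E18.5. Both Mki67 and Top2a were detected in 138, 268, 62 and 219 of them in that order, Top2a alone in 42, 44, 4 and 18, and Mki67 alone in 11, 13, 5 and 12. At the threshold itself, 35, 31, 7 and 13 nuclei had exactly 2 UMIs of the pair, and 82, 65, 20 and 65 nuclei just outside had 1. Cycling nuclei were richer in RNA than the others of their library: the median was 5831 against 3743 UMIs in WT E14.5, 8702 against 5333 in WT E18.5, 7813 against 4879 in WT P5 and 10761 against 6566 in KO E18.5. The number of genes detected followed, with medians of 2647 to 3696 in cycling and 1928 to 2597.5 in non-cycling nuclei. A nucleus with more UMIs also has a greater chance to show 2 of these genes, and the part of depth in these differences cannot be told apart from that of division.

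The label was set beside genes that the rule did not read. All 15 genes of a mesenchymal identity list, among them the limb connective tissue factors Prrx1, Osr1 and Twist2 and the fibroblast factors Ebf1 and Ebf2, had UMIs in the cycling nuclei of every library. Such presence does not tell cell types apart. In WT E14.5 all 10 myonuclear and all 6 endothelial genes listed also had UMIs in cycling nuclei. No nuclei outside the gate were set beside the identity genes. Prrx1, a homeobox factor of limb mesenchyme, was detected in 66.0%, 79.7%, 84.5% and 83.9% of cycling nuclei in WT E14.5, WT E18.5, WT P5 and KO E18.5, against 57.2%, 69.2%, 73.4% and 70.2% of non-cycling nuclei. Scaled to depth, its level was 448, 440.3, 578 and 504 CPM in cycling and 548, 461, 520.4 and 461 CPM in non-cycling nuclei. The markers of muscle stem cells and myoblasts, 8 genes, summed to 16.9 to 27.9 CPM in cycling and 9.96 to 27.3 CPM in non-cycling nuclei, against 12388 to 14618 CPM for the 15 identity genes in cycling nuclei. A few genes carried most of the identity sum. In WT E14.5 Nfib, Nfia, Ebf1 and Ebf2 had 3476, 3191, 2415 and 1265 of the 12388 CPM. The study also reports Nfia and Nfib as enriched in neonatal myonuclei. Twist1 and Pitx1 had only 2 UMIs each in the cycling nuclei of WT P5. Myonuclear genes, 10 in number and none of them part of the rule, summed to 749 to 1147 CPM in cycling and 657 to 1318 CPM in non-cycling nuclei. The gate did not exclude tendon or cartilage nuclei. In cycling nuclei of WT E14.5, 9 tenocyte genes summed to 1124 CPM and 12 chondrocyte and osteoblast genes to 1342 CPM. Of these Col11a1 gave 627 and Sox6 612 CPM. In WT E14.5, 3 of 9 chondrocyte and osteoblast genes compared were 2-fold higher in cycling nuclei and 1 lower. Medians of that list were 0.56, 0.08, 0.50 and -0.14 on the log2 scale in WT E14.5, WT E18.5, WT P5 and KO E18.5. Macrophage markers, 6 genes, reached 437 CPM in the cycling nuclei of KO E18.5 against 3.09, 159 and 53.8 CPM in WT E14.5, WT E18.5 and WT P5, and 9.72 to 175 CPM in the non-cycling nuclei, and 4, 6, 5 and 6 of these genes had UMIs in the cycling nuclei of WT E14.5, WT E18.5, WT P5 and KO E18.5. Endothelial markers, 6 genes, summed to 157 to 255 CPM in cycling and 117 to 341 CPM in non-cycling nuclei. Within libraries they were often higher in cycling nuclei before birth. At 2-fold or more these were 1 of 5 compared in WT E14.5, 4 of 6 in WT E18.5, 0 of 4 in WT P5 and 3 of 6 in KO E18.5. The list medians were 0.41, 1.23, -0.06 and 0.79 on the log2 scale. Emcn in WT E18.5 was at 23.5 CPM in cycling and 1.97 CPM in non-cycling nuclei. Leaving out nuclei with a UMI of a set of marker genes of other cell types, among them Pecam1 and Cdh5 of endothelial, Ptprc and Csf1r of immune and Myod1 and Myog of muscle precursor cells, gave 160 genes that were 2-fold higher in cycling nuclei in all 4 libraries, and 152 of them were among the 183 described below.

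Cycling nuclei made up 23.3% of mesenchymal nuclei in WT E18.5 (325 of 1397, exact Clopper-Pearson 95% interval 21.1% to 25.6%) and 16.5% in WT E14.5 (191 of 1156, 14.4% to 18.8%). The share was 8.69% in WT P5 (71 of 817, 6.85% to 10.8%) and 26.4% in KO E18.5 (249 of 942, 23.6% to 29.4%). In the adult library 0 of 64 mesenchymal nuclei were cycling, which allows a share of up to 4.69% by the limit of 3 counts and 5.601% by the exact interval. Adult nuclei were shallower, with a median of 2528 UMIs, and after thinning 0 of 23 were cycling, with an exact upper limit of 14.8%, so the adult share is not comparable with the others. These intervals cover counting error only, and with 1 library a group there is no test of stage or genotype.

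Depth differed between libraries, so nuclei with at least 2000 UMIs were thinned to 2000 UMIs each and the gate was applied again. This left out 403 nuclei of any type in WT E14.5, 141 in WT E18.5, 386 in WT P5 and 67 in KO E18.5. The share was then 8.84% in WT E14.5 (51 of 577), 13.9% in WT E18.5 (112 of 805), 5.73% in WT P5 (27 of 471) and 17.8% in KO E18.5 (87 of 489). The order of the libraries stayed. The interval of WT E18.5 reached from 11.6% to 16.5%, which overlapped with that of KO E18.5, and the intervals also overlapped between WT E14.5 (6.65% to 11.5%) and WT P5 (3.81% to 8.23%). Myonuclei do not divide, so their share served as the background. Among nuclei with at least 2% of their UMIs from the 4 fiber genes, 0.680% in WT E14.5, 1.86% in WT E18.5, 0.893% in WT P5 and 5.14% in KO E18.5 (44 of 856) passed the same threshold for Mki67 and Top2a, at median depths of 4841, 6843, 6446 and 10084 UMIs, against 4050.5, 5919, 5048 and 7399.5 UMIs for mesenchymal nuclei. Every mesenchymal share lay above the share in the myonuclei of its own library. At this cut, chosen after seeing the data, the background was highest in KO E18.5. At a cut of 5% it was 0 of 15 nuclei in WT E14.5, 1 of 436 in WT E18.5, 1 of 1074 in WT P5 and 0 of 95 in KO E18.5.

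**Figure D1:**
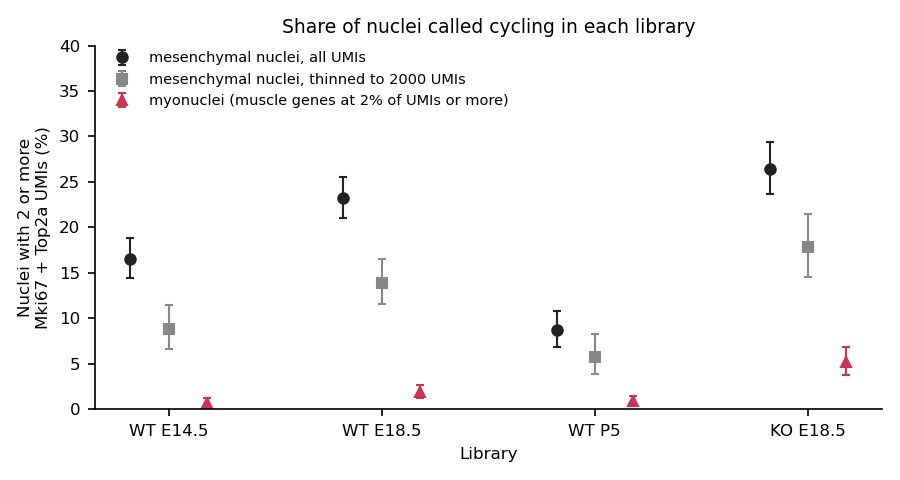
Share of nuclei (y axis, percent) with 2 or more UMIs of Mki67 and Top2a in each library (x axis), with exact 95% intervals as bars that cover counting error only. Mesenchymal nuclei at full depth (black circles, 8.69% to 26.4%) and after thinning to 2000 UMIs (grey squares, 5.73% to 17.8%) lie above myonuclei with at least 2% muscle fiber UMIs (red triangles, 0.680% to 5.14%).

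The largest differences in RNA lay in mitotic genes. Together 81 of them summed to 11524, 13096, 14671 and 15936 CPM in cycling nuclei of WT E14.5, WT E18.5, WT P5 and KO E18.5, and to 602, 517, 443 and 496 CPM in non-cycling nuclei. Of 7443 genes with enough UMIs in all 4 libraries, 183 were at least 2-fold higher in cycling nuclei in every library, which is 2.46% of the genes compared, and 181 of them were not genes of the rule. At the same size 2 genes, or 0.0269%, were lower in every library. In single libraries the share of genes at least 2-fold higher was 3.92% in WT E14.5, 5.41% in WT E18.5, 5.67% in WT P5 and 6.89% in KO E18.5, and the share at least 2-fold lower was 2.99%, 2.88%, 4.13% and 3.87%. Among the higher genes 53 exceeded 16-fold in each library. Of the 181, 79 belonged to 7 lists of replication, repair, mitosis and chromosome structure, and 100 belonged to no list. Without WT P5, which had the fewest nuclei, 315 genes were 2-fold higher in the other 3 libraries. The lists had been drawn up with earlier results of these data known, so their counts are descriptions.

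The genes that control entry into the cycle differed less than those of the later phases. In a G1 list 2 of 12 genes compared were 2-fold higher in all 4 libraries, with medians of the list between 0.37 and 0.55 on the log2 scale, where the median of all genes lay between -0.08 and -0.05. Those 2 were E2f7, an E2F factor that represses S phase genes, and Rbl1, the pocket protein p107. E2f7 was at 129, 192, 171 and 163 CPM in cycling nuclei of WT E14.5, WT E18.5, WT P5 and KO E18.5, and at 13.7, 15.3, 8.50 and 7.89 CPM in non-cycling nuclei. The D cyclin Ccnd2, which drives G1, lay on the other side: its CPM in cycling nuclei was 0.514, 0.736, 0.634 and 0.701 times that in non-cycling nuclei. Rb1, the retinoblastoma protein, stood at ratios of 1.54, 1.43, 2.17 and 1.49.

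Genes of CDK inhibitors and cycle exit did not move as one. None of 7 genes compared in all 4 libraries passed 2-fold in either direction in every library, and the medians of the list ran from -0.24 to 0.22. Mxd4, a MAX partner that opposes MYC, had 26.3, 33.1, 38.0 and 24.3 CPM in cycling against 47.0, 72.1, 65.6 and 39.4 CPM in non-cycling nuclei, 0.460 to 0.615 times as much. Cdkn1c, the imprinted inhibitor p57, differed little, with ratios of 0.719 to 0.968. One inhibitor went with the cycling nuclei. Cdkn2c, which encodes p18 and blocks CDK4 and CDK6, had 11.6, 40.0, 82.3 and 52.4 CPM in cycling nuclei and 0.525, 1.81, 2.19 and 2.35 CPM in non-cycling nuclei, ratios of 22.1, 22.2, 37.6 and 22.3, although its counts were too low for the comparison across all 4 libraries.

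Replication genes were mostly higher, by varied amounts. Of 16 compared in all 4 libraries 14 were higher in each by some amount, as were 1344 of all 7443 genes compared. At 2-fold or more 17 of 37 were higher in WT E14.5, 27 of 38 in WT E18.5, 13 of 16 in WT P5 and 30 of 37 in KO E18.5. In all 4 libraries 7 of 16 were 2-fold higher, and the list medians were 0.96, 1.39, 1.80 and 1.34. The 7 were the polymerase subunits Pola1 and Pole, the checkpoint mediator Clspn, the kinase activator Dbf4, the nucleotide enzymes Rrm1 and Tyms, and the histone mRNA binding protein Slbp. Dbf4, which switches on the CDC7 kinase at origins, had 126, 127, 108 and 171 CPM in cycling and 14.2, 9.52, 6.80 and 6.82 CPM in non-cycling nuclei. Clspn had 121, 151, 131 and 100.2 CPM against 17.1, 16.3, 8.50 and 11.3 CPM. The helicase subunits Mcm6 and Mcm4 differed less. Mcm6 was at 48.7, 81.3, 57.0 and 58.4 CPM in cycling and 70.4, 77.3, 38.4 and 58.8 CPM in non-cycling nuclei, so that the ratio was 0.693, 1.05, 1.48 and 0.992. Mcm4 had ratios of 0.889, 1.32, 1.85 and 1.63. Pcna, the sliding clamp and the protein used for the sort, had ratios of 2.03, 2.46, 3.26 and 2.14 on few UMIs.

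DNA repair and fork protection genes, which act on stalled or broken replication forks, were higher throughout: 10 of 10 compared passed 2-fold in all 4 libraries. Brca1, a repair protein of homologous recombination, stood at 157, 208, 176 and 180.3 CPM in cycling and 20.5, 13.6, 10.4 and 15.4 CPM in non-cycling nuclei. Polq, the polymerase of end joining, had ratios of 16.2, 23.6, 55.6 and 24.1. The Fanconi anemia gene Fancd2 had ratios of 23.1, 26.2, 20.6 and 26.5.

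Mitotic genes showed the largest ratios. All of those compared passed 2-fold in every library: 9 of 9 mitotic cyclins and kinases, 14 of 14 kinetochore and centromere genes, 17 of 17 spindle genes and 10 of 10 cytokinesis genes. The list medians were 4.50 to 5.91 for kinases, 5.39 to 6.32 for the kinetochore, 5.84 to 6.52 for the spindle and 5.15 to 6.33 for cytokinesis on the log2 scale. Kif23, the motor of the central spindle, was at 272, 296, 282 and 358 CPM in cycling nuclei and at 1.31, 0.328, 1.94 and 0.640 CPM in non-cycling nuclei. Its ratios were 207, 903, 145 and 559, the denominators being a handful of UMIs. Hmmr, a spindle pole protein, was detected in 42.4%, 52.6%, 69.0% and 64.3% of cycling nuclei and in 0.340%, 0.199%, 0.413% and 0.478% of non-cycling nuclei. Knl1, the scaffold of the outer kinetochore, had 361, 460.0, 560.4 and 592 CPM against 4.99, 3.61, 4.86 and 2.77 CPM. Diaph3, a formin of the contractile ring, had 1098, 1303, 1771 and 1641 CPM against 42.5, 27.1, 30.1 and 36.5 CPM. Cdk1, the kinase that starts mitosis, was less restricted, with ratios of 9.33, 10.4, 25.4 and 11.9. The B cyclin Ccnb2 stood at 81.2, 73.5, 76.0 and 77.0 CPM against 5.51, 6.57, 5.59 and 3.62 CPM.

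Proteins of chromosome structure followed, with 12 of 14 genes compared 2-fold higher in all 4 libraries. The condensin subunit Ncapg had ratios of 54.1, 145, 119 and 102, and its partners Smc2 and Smc4 had ratios of 5.42 to 13.1. The Polycomb methyltransferase Ezh2 was at 549, 490.0, 399 and 502 CPM in cycling against 263, 184, 102 and 172 CPM in non-cycling nuclei. Hells, a chromatin remodeler, and Dnmt1, the maintenance DNA methyltransferase, were the 2 that did not pass, with ratios of 1.79, 2.38, 3.73 and 2.79 for Hells and 1.44, 2.03, 2.99 and 2.66 for Dnmt1.

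The 15 genes with the highest ratio in the library where it was nearest to 1 were Hmmr, Depdc1b, Depdc1a, Kif23, Kif14, Iqgap3, Cep55, Spag5, Neil3, Cdca2, Aspm, Esco2, Bub1, Knl1 and Nusap1. Most serve the spindle, the kinetochore or cytokinesis. Neil3, a DNA glycosylase of replication-linked repair, was the one repair enzyme among them, at 297, 482, 571 and 573 CPM in cycling and 3.68, 5.09, 2.67 and 4.26 CPM in non-cycling nuclei. Esco2, which acetylates cohesin in S phase, had ratios of 77.0, 528, 665 and 344.

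**Figure D2:**
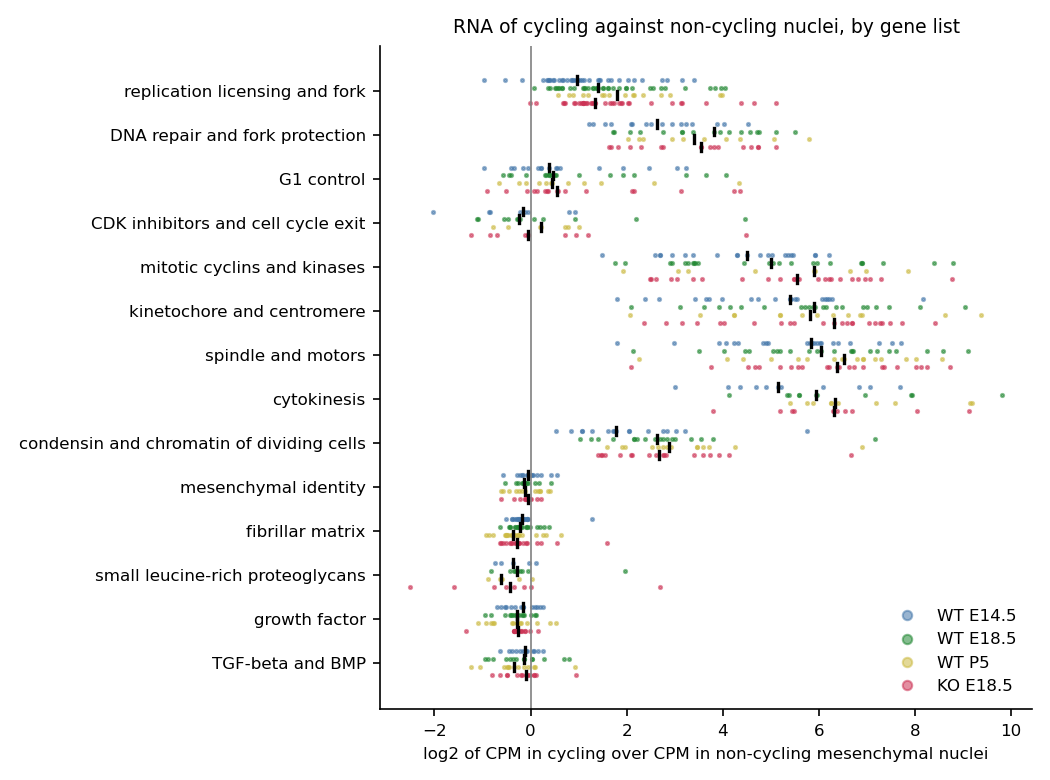
Log2 of CPM in cycling over CPM in non-cycling mesenchymal nuclei (x axis) for each gene (points) of the named lists (y axis), in the 4 libraries (colors), with the median of each list as a black bar. Medians of the 4 mitotic lists lie between 4.50 and 6.52, those of replication between 0.96 and 1.80, and those of mesenchymal identity and fibrillar matrix between -0.37 and -0.05.

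The balance of replication to mitotic RNA differed between kinds of nuclei. The summed UMIs of 38 replication genes were 0.220, 0.220, 0.177 and 0.159 times those of 81 mitotic genes in cycling nuclei of WT E14.5, WT E18.5, WT P5 and KO E18.5, and 1.91, 2.01, 1.58 and 1.82 times in non-cycling nuclei. Nuclei with 1 UMI lay between, at 0.8002, 1.45, 1.18 and 1.35. Among the members, the ratio was 0.539, 0.933, 0.695 and 1.03 in those with Top2a but no Mki67, 0.197, 0.641, 0.294 and 0.842 in those with Mki67 but no Top2a, and 0.182, 0.188, 0.167 and 0.145 in those with both. It was also high in the members with exactly 2 UMIs of the pair, at 0.753, 1.52, 1.06 and 1.26, so the number of UMIs and the gene detected cannot be told apart here. Those with both genes carried 13013, 14915, 15892 and 17588 CPM of mitotic genes against 6728, 3866, 4367 and 2955 CPM in those with Top2a alone. Replication genes had 3628, 3608, 3034 and 3037 CPM in nuclei with Top2a alone and 2371, 2807, 2648 and 2542 CPM in those with both. As Mki67 and Top2a are read out by the rule and grouped here by their own detection, these values are a description. The most similar other population was cycling Pax7-positive, Pdgfra-negative nuclei (126, 66, 24 and 187), which are muscle stem cells or myoblasts by that rule. Their balance was 0.271, 0.275, 0.371 and 0.253, above that of the mesenchymal nuclei in each library, with no test.

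Mesenchymal identity genes differed little between cycling and non-cycling nuclei. None of 13 identity genes compared in all 4 libraries reached 2-fold in each, and the list medians were -0.05, -0.13, -0.12 and -0.05. Ebf1 was at 2415, 3194, 4798 and 3491 CPM in cycling and 2743, 3492, 4495 and 3614 CPM in non-cycling nuclei. Tcf7l2, a Wnt effector that marks muscle connective tissue fibroblasts, had ratios of 1.16, 0.904, 0.921 and 0.983. Pdgfra itself, a gene of the rule, was at 369.8, 333, 329 and 385 CPM in cycling and 505, 418, 371 and 435 CPM in non-cycling nuclei.

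Fibrillar matrix genes were slightly lower in cycling nuclei. None of 20 passed 2-fold in all 4 libraries, 13 of 20 were lower in each library by some amount, as were 1986 of the 7443 genes compared, and the list medians were -0.19, -0.22, -0.37 and -0.27. Col14a1, a collagen that associates with fibril surfaces, had 197, 804, 746 and 520.0 CPM in cycling against 281, 1079, 1285 and 689.9 CPM in non-cycling nuclei, ratios of 0.699, 0.745, 0.580 and 0.754. Col1a2, a chain of type I collagen, had ratios of 0.789, 0.799, 0.721 and 0.851. Mfap2, a microfibril protein, had ratios of 0.807, 0.647, 0.529 and 0.652. A few went against the list. Tnc, the tenascin of tendon and injured matrix, stood at 144, 192, 222 and 51.0 CPM in cycling and 150.5, 147, 144 and 16.8 CPM in non-cycling nuclei, a ratio of 3.03 in KO E18.5. There 25 cycling nuclei held Tnc, and 40 of 145 UMIs were in 1 of them.

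By some amount, 1986 of the 7443 genes were lower in cycling nuclei in all 4 libraries and 1344 higher, and 2 were lower by 2-fold or more. Tcea3, a transcription elongation factor, was at 2.32, 7.82, 14.2 and 9.49 CPM in cycling and 10.8, 22.0, 37.4 and 21.3 CPM in non-cycling nuclei. Cacna1e, a neuronal type calcium channel subunit, was at 30.9, 14.1, 7.92 and 18.3 CPM against 69.1, 28.9, 20.7 and 43.3 CPM. At 1.5-fold 45 genes were lower in all 4 libraries, among them Kdm7a, a histone demethylase, with ratios of 0.510, 0.383, 0.541 and 0.432, and Ypel3, a gene of growth arrest, with ratios of 0.589, 0.394, 0.174 and 0.529. The count of 2 rested on the settings: when the non-cycling nuclei were matched on UMIs, 4 genes were 2-fold lower and neither Tcea3 nor Cacna1e was among them.

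Open chromatin was measured in the same nuclei by ATAC-seq, as counts of transposase cuts in peaks, and apart from the upper limit on peak counts it was not used by the rule. Peaks had been called in each library apart, so 35961 regions present in all 4 were used. Counts per nucleus were higher in cycling nuclei in 4 of 4 libraries, with medians of 2721 against 2079 in WT E14.5, 5707 against 4250 in WT E18.5, 7648 against 4103.5 in WT P5 and 2402 against 1603 in KO E18.5. The mean log2 ratio was 0.57 ± 0.23 (SD, n = 4 libraries), with a two-sided exact sign-flip permutation p = 0.13, the smallest that 4 libraries can give. Against non-cycling nuclei matched on UMIs the mean was 0.45 ± 0.47 (SD, n = 4), with ratios of 1.34, 1.04, 2.17 and 1.15. The matching was incomplete in 2 libraries. Median UMIs were still 8702 in cycling against 7978 in matched nuclei of WT E18.5, a ratio of 1.09. In KO E18.5 they were 10761 against 9401, a ratio of 1.14. Without the upper limit on peak counts the mean was 0.58 ± 0.24 (SD, n = 4).

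Counts were then summed per library over cycling and over non-cycling nuclei and compared within libraries. Of 32276 regions tested, 27 were more open in cycling nuclei (0.0837%) and 5 less open (0.0155%) at an adjusted p under 0.05 by edgeR's quasi-likelihood test with Benjamini-Hochberg adjustment, and 1704 had an unadjusted p under 0.05. Of the 27, 25 lay within 500 bases of a gene start in the annotation that came with the counts. By kind, 11 lay at genes of the cell cycle lists or at Mki67, a gene of the rule. A further 8 lay at histone genes, a group formed after the calls were seen, 6 at other genes and 2 at no gene start. The region chr13:23554615-23555503, counted under no gene start, holds the RefSeq start of the histone gene H1f3 (Hist1h1d). The count of more open regions was 14 without WT E18.5, 11 without WT P5, 10 without KO E18.5 and 11 against non-cycling nuclei matched on UMIs, and no region was called when the library term was dropped.

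Replication-dependent histones package new DNA in S phase and sit in clusters, the main one on chromosome 13. The region with the smallest p among the histone regions, at the divergent pair Hist1h2ah and Hist1h2bk (chr13:22035267-22036184, mm10), had 66.4, 57.6, 71.9 and 84.7 ATAC CPM (cut counts scaled to a common total) in cycling nuclei of WT E14.5, WT E18.5, WT P5 and KO E18.5 and 38.0, 24.8, 29.1 and 34.6 in non-cycling nuclei. All 4 libraries were higher and the groups did not overlap (edgeR log2 1.15, adjusted p = 0.000457). The linker histone gene Hist1h1b (chr13:21780194-21781070) had 22.9, 23.5, 36.7 and 38.5 ATAC CPM in cycling against 8.39, 6.60, 10.95 and 17.7 in non-cycling nuclei (edgeR log2 1.54, adjusted p = 0.00887). Hist1h3b (chr13:23751890-23752752), a core histone, had 44.6, 40.0, 38.3 and 45.1 against 18.4, 15.97, 12.1 and 20.4 (edgeR log2 1.34, adjusted p = 0.00367). Over all 46 tested regions at 55 histone gene starts, a group formed after the calls were seen, 44 were higher and 2 lower by any amount, with a median log2 of 0.51, where the 14985 tested regions at gene starts had 7280 higher, 7705 lower and a median of -0.01. Copies of histone genes are near-identical, so reads that map to more than 1 copy make the value of a single copy uncertain. The RNA of 67 histone genes, whose mRNAs mostly lack a poly(A) tail, summed to 639, 285, 241 and 390 CPM in cycling and 97.7, 37.3, 42.8 and 67.8 CPM in non-cycling nuclei, a description with ratios of 6.54, 7.64, 5.63 and 5.75.

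Among the cell cycle genes the smallest p was at Mki67 (chr7:135716123-135717016), with 101, 99.8, 97.4 and 106 ATAC CPM in cycling against 61.6, 63.2, 50.2 and 53.0 in non-cycling nuclei (edgeR log2 0.80, adjusted p = 0.00239). Its RNA was part of the rule, its open chromatin was not. Pbk, a mitotic kinase (chr14:65805422-65806501), had 36.6, 31.5, 33.5 and 35.2 against 13.2, 12.8, 13.8 and 6.11 (edgeR log2 1.54, adjusted p = 0.00430). Ccnb2 (chr9:70421116-70422048) had 34.3, 37.8, 52.7 and 40.7 against 21.2, 14.2, 18.7 and 19.01 (edgeR log2 1.19, adjusted p = 0.0152). The other regions at cell cycle genes started E2f8, Fam83d, Anln, Cdc25b, Rrm2, Ckap2, Lmnb1 and Ccna2, and Cenpw, a centromere protein outside the lists, was also called. Top2a, the other gene of the rule, was at 78.9, 73.4, 78.2 and 113 against 77.1, 58.0, 64.3 and 76.7 ATAC CPM and did not pass (edgeR log2 0.30, adjusted p = 0.922).

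The region with the smallest p of those more open was at Mxd3 (chr13:55329491-55330436), a MAX partner, with 108, 96.1, 81.4 and 115 ATAC CPM in cycling and 50.0, 54.5, 51.6 and 45.5 in non-cycling nuclei (edgeR log2 0.96, adjusted p = 0.000457). Trim59, a ubiquitin ligase gene (chr3:69044346-69045313), had 92.7, 101, 89.4 and 81.4 against 59.2, 44.8, 35.2 and 49.6 (edgeR log2 0.98, adjusted p = 0.000517). Both sets of 4 values lay apart. The 5 less open regions included those at Gm26917 and AY036118 on chromosome 17, which carried 1311 to 3432 ATAC CPM in cycling nuclei and 1690 to 4443 in non-cycling nuclei, with small changes (edgeR log2 -0.42 and -0.35, adjusted p = 4.25e-05 and 0.000647). Another lay on the scaffold JH584304.1. Whether the high counts at Gm26917 and AY036118 come from reads that map to more than 1 place was not tested.

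**Figure D3:**
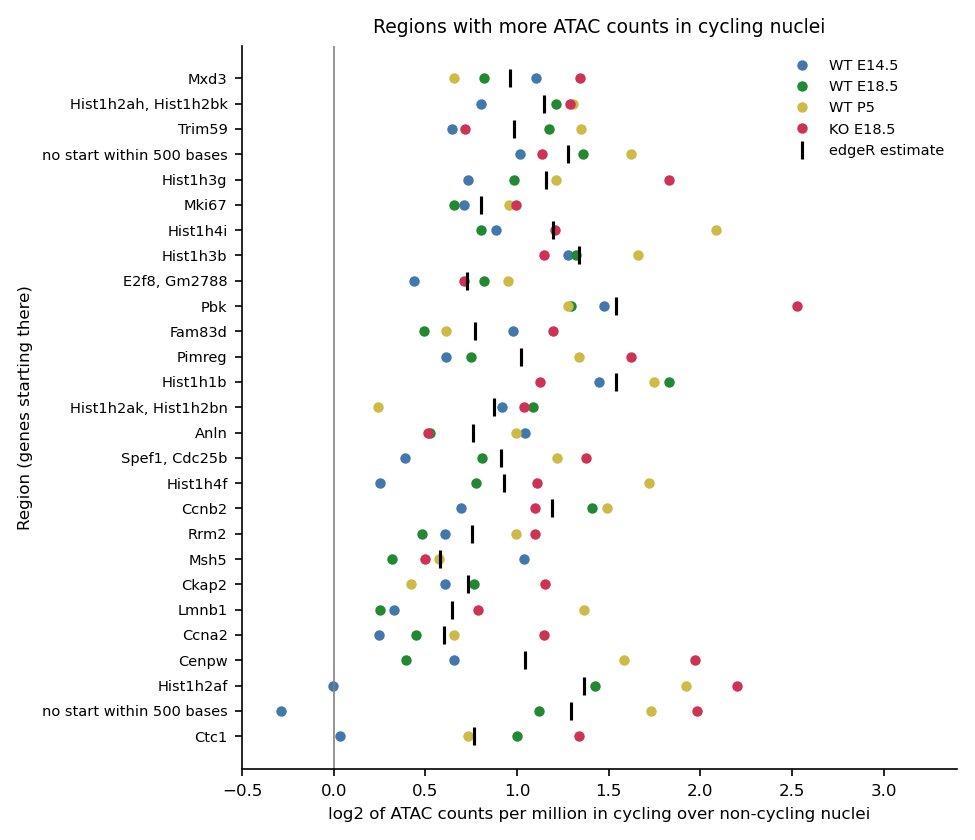
The 27 regions with more ATAC counts in cycling nuclei (y axis, named by the genes that start there, ordered by p) and the log2 ratio of ATAC CPM in each library (x axis, colored points), with the edgeR estimate as a black bar. Nearly all points lie to the right of 0, with exceptions in WT E14.5, where the region on chromosome 10 with no start lies below 0 and Hist1h2af and Ctc1 lie at about 0.

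Chromatin at gene starts differed by less than RNA. Across lists the median log2 of open chromatin at starts was 0.50 for cytokinesis, 0.39 for the spindle, 0.29 for mitotic kinases, 0.25 for the kinetochore, 0.21 for repair, 0.19 for G1 control, 0.17 for chromosome structure and 0.12 for replication. All 10 tested cytokinesis starts and 22 of 23 spindle starts were higher by some amount, and 1 and 2 of these were called. For the 176 regions at starts of genes whose RNA was higher in all 4 libraries, 152 were higher and 24 lower, with a median of 0.22, and 4 were called. Hmmr, with RNA ratios of 183 to 552, had a start region at 76.6, 69.3, 39.9 and 70.4 ATAC CPM in cycling and 68.7, 63.9, 67.2 and 47.5 in non-cycling nuclei (edgeR log2 0.06, adjusted p = 0.992). Starts of the CDK inhibitors (7 higher, 7 lower, median 0.00), of mesenchymal identity (6 and 8, median -0.01) and of fibrillar matrix genes (8 and 9, median -0.04) had none called.

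**Figure D4:**
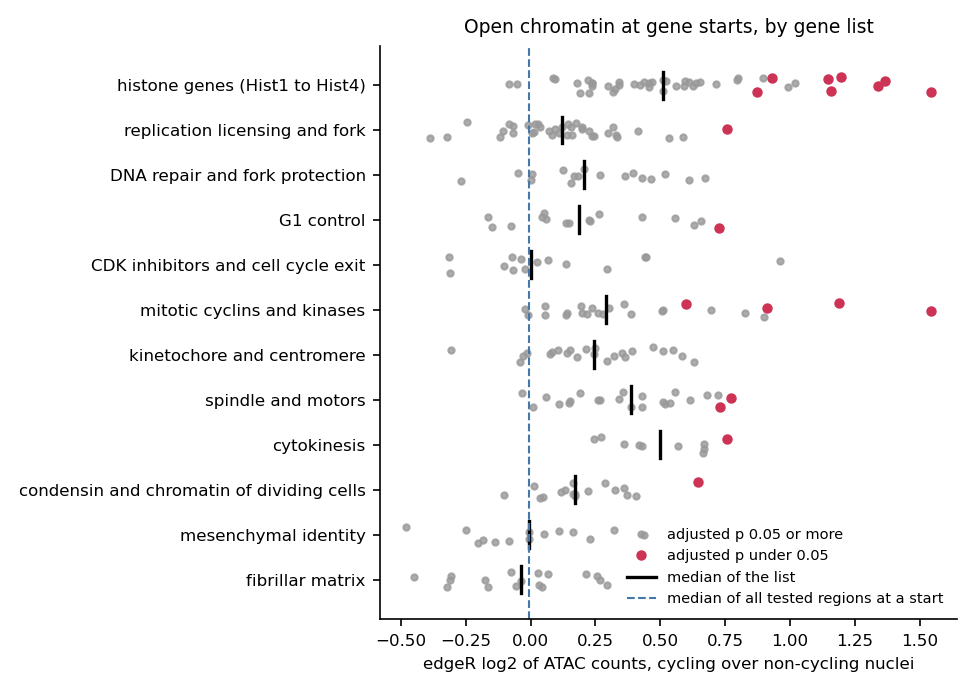
The edgeR log2 of ATAC counts in cycling over non-cycling nuclei (x axis) at tested regions within 500 bases of the start of each gene (points) by list (y axis), with called regions in red, list medians as black bars and the median of all 14985 tested start regions as a dashed line at -0.01. Histone starts (median 0.51, 8 called) and cytokinesis starts (0.50, 1 called) lie furthest right, and identity and matrix starts lie about the dashed line.

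Promoters of the called regions were searched for motifs known from cell cycle genes. CCAAT is the site of NF-Y, TTTGAA is the CHR element by which cell cycle repressor and activator complexes bind, and TTGGCGC, with its variants TTCCCGC, then TTGCCGC and also TTCGCGC, is a form of the E2F site. TTGGCGC can share bases with a CCAAT of the other strand. In the 250 bases before the start, on both strands, CCAAT was present in 76.9% of 26 windows whose start lay in a more open region, against 35.9% of all 17883 windows, and TTTGAA in 46.2% against 14.7%. Both motifs together stood in 46.2% against 5.34%. Both stood in 8 of 15 windows of genes other than histones, and in 4 of 11 windows of histone genes. The 26 windows are not all separate. Windows of the divergent pairs H2ac12 and H2bc12, H2ac15 and H2bc15, and Ckap2 and Gm29878 share bases, so a match can count for both genes. Some called regions, such as those at Pbk and Ccna2, had no window. In windows of genes with higher RNA in all 4 libraries (134 of 181 matched), CCAAT was in 61.2% and TTTGAA in 25.4%. E2F forms were in 23.1% of these windows and in 30.8% of the 26 windows in more open regions. The E2F forms separated the lists: they were in 50.0% of 30 replication windows and 11.5% of 61 mitotic windows, against 9.72% of all, while TTTGAA was in 6.67% and 29.5%. The 17883 windows are those of all matched genes, whether or not their start lay in a region tested here. Shares were not taken over windows in tested start regions alone. Whether open promoters in general carry more of these motifs was therefore not tested. These shares are descriptions, and a match in a window is not a bound site.

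To show these motifs, 7 of the promoters in called regions are printed, 4 of cell cycle genes, Trim59 and 2 of histone genes, picked after the matches were seen. Each is the 120 bases before the RefSeq start, read 5′ to 3′ along the gene from GRCm38.p6, with matches of the motifs on either strand in capitals, where a CCAAT of the other strand reads ATTGG and a TTTGAA of the other strand reads TTCAAA. Ccnb2 is at chr9:70421555-70421674 (minus strand), Fam83d at chr2:158767979-158768098 (plus strand), Ckap2 at chr8:22185820-22185939 (minus strand) and E2f8 at chr7:48881597-48881716 (minus strand). Trim59 is at chr3:69044743-69044862 (minus strand), H3c2 (Hist1h3b in the files) at chr13:23752225-23752344 (plus strand) and H1f5 (Hist1h1b) at chr13:21780626-21780745 (minus strand).
Ccnb2: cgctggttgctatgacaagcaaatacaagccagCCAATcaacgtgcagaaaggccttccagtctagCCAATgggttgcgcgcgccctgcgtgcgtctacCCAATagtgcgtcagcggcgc
Fam83d: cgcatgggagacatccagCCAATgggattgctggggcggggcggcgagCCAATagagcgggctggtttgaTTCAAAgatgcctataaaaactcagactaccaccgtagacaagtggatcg
Ckap2: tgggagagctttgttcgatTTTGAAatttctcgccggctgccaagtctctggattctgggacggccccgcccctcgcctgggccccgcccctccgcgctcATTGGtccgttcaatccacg
E2f8: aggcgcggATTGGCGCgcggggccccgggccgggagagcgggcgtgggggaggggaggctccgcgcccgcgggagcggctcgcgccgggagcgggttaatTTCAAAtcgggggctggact
Trim59: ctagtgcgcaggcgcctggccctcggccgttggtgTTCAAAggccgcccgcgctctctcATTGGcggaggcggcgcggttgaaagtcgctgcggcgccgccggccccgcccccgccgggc
H3c2: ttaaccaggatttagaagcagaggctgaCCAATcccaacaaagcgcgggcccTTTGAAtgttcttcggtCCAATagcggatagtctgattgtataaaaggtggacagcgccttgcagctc
H1f5: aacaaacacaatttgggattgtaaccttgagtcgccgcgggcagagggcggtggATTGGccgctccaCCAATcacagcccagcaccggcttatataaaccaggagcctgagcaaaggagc
Ccnb2 holds 3 CCAAT in this stretch and no TTTGAA. Fam83d, a spindle protein gene, and the histone gene H3c2 each hold 2 CCAAT with a TTTGAA, the TTTGAA of H3c2 lying between its pair of CCAAT. Ckap2, E2f8 and Trim59 each hold 1 of each, and in E2f8 the CCAAT runs into an E2F form. H1f5 holds 2 CCAAT, on opposite strands.

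Stage and genotype were compared over the summed RNA of the cycling nuclei, with the same ratio in non-cycling nuclei beside it, and without a test, as each group was 1 library. The 3 comparisons share the WT E18.5 library. From WT E14.5 to WT E18.5, 8.23% of 10275 genes were at least 2-fold higher in cycling nuclei and 6.32% lower, against 8.91% and 10.1% in non-cycling nuclei. Of 11 mature fibroblast genes compared 10 were at least 2-fold higher, with a median log2 of 2.19 in cycling and 2.28 in non-cycling nuclei, where the median of all genes was 0.04. Mfap5, a microfibril protein, was at 111 CPM in WT E18.5 and 7.74 CPM in WT E14.5 (14.4 times, 95% counting interval 7.73 to 30.3), and 10.5 times as high in non-cycling nuclei. Dpp4, a surface peptidase of fibroblast progenitors, was at 70.0 and 8.51 CPM. Outside the list, Tnxb, a tenascin of loose connective tissue, was at 385 and 15.5 CPM in the cycling nuclei, in 252 and 17 nuclei. The matrix list differed less, with 8 of 20 at least 2-fold higher and medians of 0.77 and 0.72, and Col1a1, a gene of the rule, was at 1775 and 307 CPM. Of 11 Wnt genes compared 5 were at least 2-fold lower and none higher, with a median of -0.72 against -0.998 in non-cycling nuclei. Lef1, a transcription factor of the Wnt pathway, was at 5.63 and 38.7 CPM, 6.87 times lower in cycling and 2.77 times lower in non-cycling nuclei. Kif26b, a kinesin gene, was at 7.19 and 247 CPM, 34.3 times lower in cycling and 33.9 times lower in non-cycling nuclei. Macrophage markers were higher in WT E18.5 as well, 2 of 2 compared by 2-fold or more in cycling (median 5.65) and 4 of 4 in non-cycling nuclei (median 3.10). Mrc1, a scavenger receptor of macrophages, was at 57.9 CPM in the cycling nuclei of WT E18.5, in 14 nuclei, and at 0.774 CPM in those of WT E14.5, in 1 nucleus. Without nuclei that carried a UMI of the markers of other cell types named above, 802 genes were higher and 615 lower, against 846 and 649 with them.

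From WT E18.5 to WT P5, 2.75% of 7935 genes were at least 2-fold higher in cycling nuclei and 6.16% lower, against 4.03% and 7.92% in non-cycling nuclei, and the median of all genes was -0.09. These are 218 genes higher and 489 lower, or 278 and 400 when taken relative to that median. Genes of the imprinted growth list were lower at P5, 13 of 14 by some amount, where 4615 of all 7935 genes were. By 2-fold or more 5 were lower, with a list median of -0.72 in cycling and -0.56 in non-cycling nuclei. Dlk1, a Notch-like protein of progenitors, was at 586 CPM in WT P5 and 1460.1 CPM in WT E18.5 (2.49 times lower, 95% counting interval 2.24 to 2.78), and 2.12 times lower in non-cycling nuclei. Nrg1, a growth factor for Schwann cells and muscle, was at 17.4 and 757 CPM in cycling and 28.4 and 812 CPM in non-cycling nuclei. Hmcn2, a basement membrane protein, was at 195 and 12.8 CPM in 26 and 20 nuclei, and Prlr, the prolactin receptor, at 101 and 5.32 CPM in 19 and 8 nuclei. Several of the highest ratios in WT P5 rested on single nuclei: 80 of 81 Kcnh7 UMIs, 59 of 68 Car3 UMIs, 77 of 87 Fgf14 UMIs and 83 of 107 Col22a1 UMIs lay in 1 nucleus each.

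Between KO E18.5 and WT E18.5, 5.49% of 12304 genes were at least 2-fold higher in the cycling nuclei of the knockout and 6.05% lower, against 6.5% and 6.76% in non-cycling nuclei, and the median of all genes was -0.07. The cell cycle program itself differed little, with medians of 0.21 for the kinetochore and 0.30 for the spindle, and -0.38 for replication, where 34 of 38 genes were lower by some amount and none by 2-fold. Of all 12304 genes 6885 were lower by some amount. Replication genes were lower in non-cycling nuclei too, with a median of -0.52. Adipogenic genes were the furthest apart. Of 6 compared 5 were at least 2-fold higher in KO E18.5, with a median of 3.47 in cycling and 2.19 in non-cycling nuclei. Pparg, the regulator of fat cell formation, was at 225 CPM in KO E18.5 and 18.45 CPM in WT E18.5 (12.2 times, 95% counting interval 9.33 to 16.2), and 4.02 times higher in non-cycling nuclei. Fabp4, a fatty acid carrier, was at 45.0 and 2.50 CPM, in 18 and 7 nuclei. Car3, a carbonic anhydrase abundant in fat cells, was at 128 and 3.75 CPM in 25 and 8 nuclei, and at 91.3 CPM in KO E18.5 without the 1 nucleus that held 105 of its 363 UMIs. Plin1, a lipid droplet coat protein, had 42 UMIs in KO E18.5 and 0 in WT E18.5, at least 15.7-fold higher with the 0 set to 3 counts.

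Genes of tendon and of mature fibroblasts lay on the other side. Of 8 tenocyte genes 5 were at least 2-fold lower in the cycling nuclei of KO E18.5, with a median of -1.65 against -0.40 in non-cycling nuclei. Tnmd, a tendon membrane protein, was at 9.49 CPM in KO E18.5 and 64.4 CPM in WT E18.5, 6.79 times lower (4.53 to 10.5) in cycling and 3.51 times lower in non-cycling nuclei. Mkx, a homeobox factor of tendon, did not follow, at 88.2 and 76.6 CPM. Of 13 mature fibroblast genes 7 were at least 2-fold lower, with medians of -1.02 and -1.09: Mfap5 was at 27.8 and 111 CPM, and Cd55, a complement regulator, at 27.4 and 98.5 CPM. Tnc was at 51.0 and 192 CPM. Of 16 growth factor genes 3 were at least 2-fold higher and none lower, with medians of 0.35 and 0.29. They were Fgf10 at 297 and 81.0 CPM (3.67 times, and 2.34 times in non-cycling nuclei), Fgf7 at 259.8 and 109 CPM and Hgf at 148 and 63.5 CPM, all made by mesenchyme for neighbouring epithelium or muscle. Macrophage genes were also higher in KO E18.5, 5 of 6 by 2-fold or more, with medians of 1.76 in cycling and 0.95 in non-cycling nuclei. Without nuclei that carried a UMI of those markers, 544 genes were at least 2-fold higher and 827 lower in the cycling nuclei of KO E18.5, against 675 and 744 with them. The difference of the cycling and the non-cycling ratios was not tested for any gene.

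**Figure D5:**
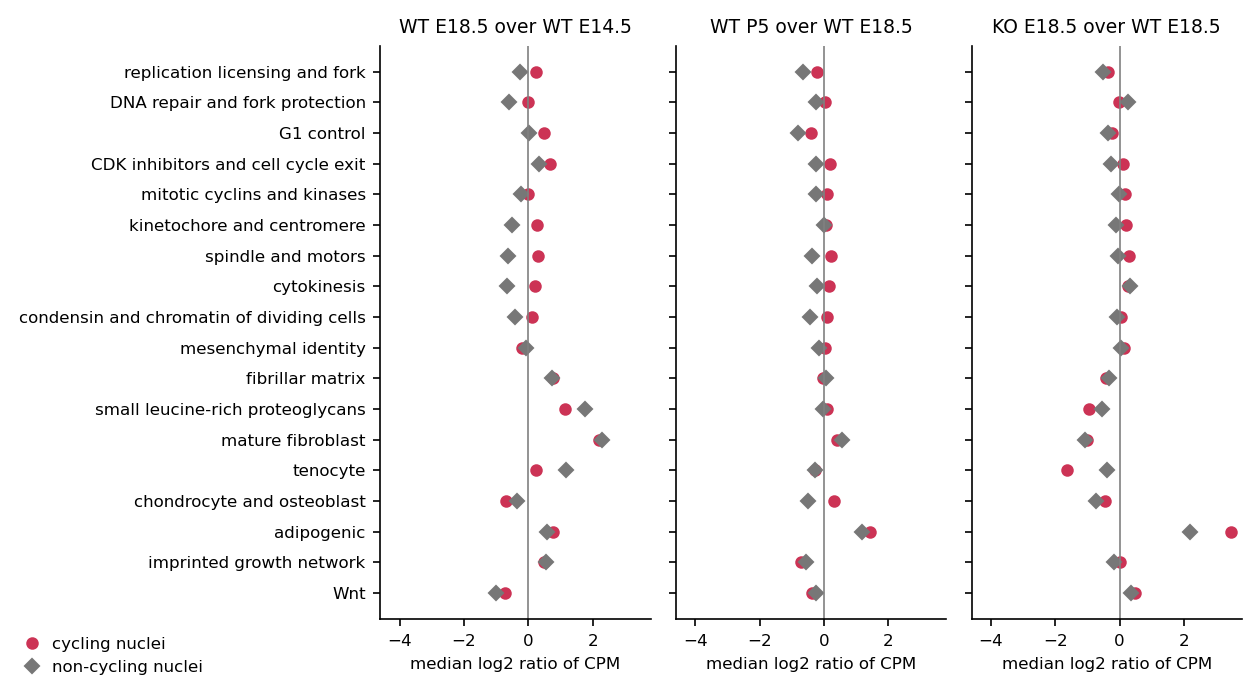
Median log2 ratio of CPM (x axis) over the genes compared in each list (y axis) for the 3 comparisons of libraries, in cycling (red circles) and non-cycling nuclei (grey diamonds). Mature fibroblast genes lie at 2.19 and 2.28 in the first panel and at -1.02 and -1.09 in the third, where adipogenic genes reach 3.47 and 2.19.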

How the data were processed

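Nuclei of pooled hindlimb muscles were profiled for RNA and open chromatin by 10x Multiome, 1 library per group. As deposited, the files hold counts per barcode that the authors made with Cell Ranger ARC 2.0.0 on mm10, intronic reads included: UMI counts for 32285 genes, and cut-site counts for peaks that were called library by library. Fewer barcodes stood in the KO file than nuclei the study states for that sample, and more WT nuclei passed the filters here than it states. No doublet caller was run.

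Nuclei with 400 to 25000 UMIs, less than 10% mitochondrial UMIs and fewer than 70000 peak counts were kept. The members, gene lists and tests were chosen with earlier results of these data known. RNA was summed per library and kind of nucleus and given as CPM, counts scaled to a common total; a sum of 0 was set to 3 counts in ratios, intervals are exact binomial 95% intervals of counting error, and a gene was compared where the smaller sum was expected to hold at least 10 UMIs. A gene counted as higher or lower at 2-fold in the same direction in all 4 libraries. Peaks present in all 4 libraries were merged, their counts summed into 8 columns, and tested in edgeR 4.0.16 (glmQLFit and glmQLFTest, library as block, adjusted p under 0.05), with DESeq2 1.42.0 as an alternative. The block rests on the design, since cycling and non-cycling nuclei of a library come from the same pool of muscle. On simulated counts for 31989 regions the edgeR step recovered 62% of 2-fold and 99% of 3-fold changes, with 6 false among 167 calls. The simulation gave every library the same region proportions and all regions a common dispersion. It thus held no differences between libraries, and its rates may not hold for these data. ATAC counts per nucleus were compared by an exact sign-flip permutation test over the 4 libraries.

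Named were the genes of the lists and of the rule, 15 genes at either end of a ranking by each gene's ratio in the library where it lay closest to 1, the 8 highest and 8 lowest of each comparison of libraries, and the called regions, of which a part is printed; mitochondrial, ribosomal, Gm and Rik genes were left out of the rankings. Promoter sequences came from RefSeq (GRCm38.p6), matched by symbol. Scripts ran in R 4.3.3 and in Python 3.11.15 with scipy 1.17.1, pandas 2.3.3, numpy 2.4.6 and matplotlib 3.10.9.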

Additional observations from a re-analysis of the deposited data

Results flagged for a closer look

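Several genes stood on opposite sides in different libraries, at 2-fold or more higher in the cycling nuclei of 1 library and 2-fold or more lower in those of another. These differences were not tested, and most rest on few nuclei. Mrc1, the mannose receptor, had a ratio of cycling over non-cycling CPM of 2.18 in KO E18.5, from 13 nuclei, and of 0.452 in WT P5, where 15 of 19 UMIs lay in 1 nucleus. F13a1, coagulation factor XIII A, had 2.84 in KO E18.5, from 12 nuclei, and 0.0838 in WT P5, from 3 nuclei. Emcn, an endothelial sialomucin, had 11.9 in WT E18.5, from 13 nuclei, 2.00 in KO E18.5, from 19 nuclei, and 0.0758 in WT P5, from 1 nucleus. Trp53inp1, a p53 target of cell cycle arrest, had 2.01 in WT P5, 0.246 in WT E14.5 and 0.468 in WT E18.5. Without the 1 nucleus that held 13 of its 21 UMIs in WT P5 the ratio there was 0.781. Col2a1, the cartilage collagen, had 2.84 in WT E14.5 and 0.334 in WT P5, and without the nucleus that held 45 of its 107 UMIs the WT E14.5 ratio was 1.67.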

How the results depend on the processing

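The cycling share moved with the threshold and with depth. In WT E14.5, WT E18.5, WT P5 and KO E18.5 it was 8.84%, 13.9%, 5.73% and 17.8% after thinning to 2000 UMIs, 23.6%, 27.9%, 11.1% and 33.3% with at least 1 UMI, and 11.4%, 19.4%, 7.22% and 23.4% with at least 4 UMIs. Without a filter on nuclei it was 31.3% in KO E18.5. The KO share stayed the highest and the P5 share the lowest in each of these. The count of 183 genes with higher RNA became 385 when at least 1 UMI was expected, with all 183 among them, and 186 to 315 when 1 library was left out, the 315 without WT P5. The count of 2 lower genes became 8 at that minimum, 4 with at least 4 UMIs of the pair, 5 with both genes required, 4 against nuclei matched on UMIs, 4 with the mean of per-nucleus CPM, 1 relative to the median gene, 0 without mixed nuclei and 6 to 11 without 1 library. Between libraries, with at least 1 UMI expected, the counts higher and lower were 1716 and 2089 for WT E18.5 against WT E14.5, 1236 and 1388 for WT P5 against WT E18.5, and 2016 and 1585 for KO E18.5 against WT E18.5, where no filter on nuclei gave 1238 and 571. The balance thus turned in WT E18.5 against WT E14.5 (846 higher and 649 lower as reported) at the lower minimum, and in KO E18.5 against WT E18.5 (675 and 744) under both settings and relative to the median gene (772 and 621). The cause of these shifts was not tested.

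For open chromatin, the 27 higher and 5 lower regions became 17 and 3 by DESeq2, 47 and 10 with counts divided by 2, 11 and 0 against matched nuclei, and 10 to 24 and 2 to 4 without 1 library (10 and 2 without KO E18.5). Without the replicate block, that is with the library term dropped, edgeR's quasi-likelihood test called 0 and 0, with 856 regions at an unadjusted p under 0.05. With matched nuclei 1081 regions had an unadjusted p under 0.05. Among 269 named genes 127 of 3497 values moved by more than their counting error, no called value to the other side. The fiber-gene cut for myonuclei, the histone group and the values without a gene's top nucleus were chosen after seeing the data. WT P5, with 71 cycling nuclei, held the fewest.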
